A study of Mus musculus with 26 samples.

Results

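The submandibular and sublingual glands of the mouse lie against each other in the neck, and their transcript levels were compared here on 10 expression arrays, 6 of submandibular and 4 of sublingual RNA, out of 26 arrays in the series. Membership was taken from the array titles. The mice were male and female BALB/c, and no treatment or altered allele was named. Each array held RNA pooled from both glands of 5 animals, 10 glands in all, with 3 pools per sex of the submandibular gland (A, B and C) and 2 per sex of the sublingual gland (A and B). The pools of one gland and sex were separate animals, per the labels. Other arrays held parotid, lacrimal and meibomian RNA of the same strain. They entered the fit for its estimate of spread, and the parotid levels are given beside a few genes. For age and array platform no source used here gave an entry. With pooled animals, the errors below describe spread between pools and not between mice.

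The submandibular gland of the mouse is a mixed gland. Its seromucous acini drain through granular convoluted ducts, which store growth factors and kallikrein proteases and are larger in males, and through striated ducts that take salt out of the saliva. The sublingual gland is mainly mucous: its acini make heavily glycosylated, sialic acid rich mucins and are capped by serous demilunes. In whole-gland RNA, fewer cells of a type and less RNA per cell cannot be told apart.

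Array quality and tissue identity were examined first. Values are scaled intensities, on which the median probe of each of the 10 arrays lay between 0.934 and 0.950. A total of 8227 of 10500 probes passed the filter on dim probes. The median standard deviation between pools of one sex and gland was 0.340 in the submandibular and 0.349 in the sublingual gland on the log2 scale. The missing-spot code divided the arrays of the series into 4 sets: pools A and B of the submandibular and A of the sublingual gland lay in set 1, and submandibular C and sublingual B in set 2. The others held no array of either gland. Sets 1 and 2 each held both glands and both sexes, so the gland difference was also fitted with set as a block. What the sets are is not stated in the labels.

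The labelled glands were checked against defining markers. Of 6 granular duct markers 3 were measured (Egf, Klk1b24 and Klk1b5), of 8 striated duct markers 5, and of 9 mucous or demilune markers 2, Spdef and Agr2. Muc19, Dcpp1, Bpifa2, Klk1 and Ren1 were not matched to a probe, and the Tff2 and Bpifa1 probes were too dim to pass. Among the measured markers, 6 were higher in the submandibular gland (2 granular duct, 3 striated duct and the acinar marker Mucl1), and both mucous markers were higher in the sublingual. Over all probes 4.62% were called higher in the submandibular and 5.7% in the sublingual gland. The myoepithelial markers Acta2, Myh11 and Cnn1 and the serous markers Amy1 and Car6 were not called in either direction.

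One library stood apart. Female submandibular pool C held the 15 genes that led the sublingual gland at 9.18% to 52.0% of their female sublingual level (median 24.5%), above the other 5 submandibular arrays for all 15. On those 5 arrays the medians ran from 1.57% to 2.69%. Pnliprp1, a pancreatic lipase relative, read 0.365, 0.571 and 84.6 in female submandibular pools A, B and C, and 123 and 215 in female sublingual pools A and B. Over the 7950 probes measured on all 10 arrays, the log2 values of pool C correlated with the sublingual A pools at 0.918 (female) and 0.904 (male) and with the sublingual B pools, of its own array set, at 0.956 and 0.933. With the other submandibular arrays they correlated at 0.914 to 0.960. Sublingual arrays in turn held the 15 genes that led the submandibular gland at median levels of 20.9% and 24.6% of the submandibular level in the 2 female pools and 12.1% and 7.69% in the 2 male pools. Whether neighbouring gland tissue entered a pool was not tested. Without pool C the 15 leading sublingual genes differed by -4.46 to -7.29, and single genes are given without it where their fold moved by over 1.5 times.

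**Figure D1:**
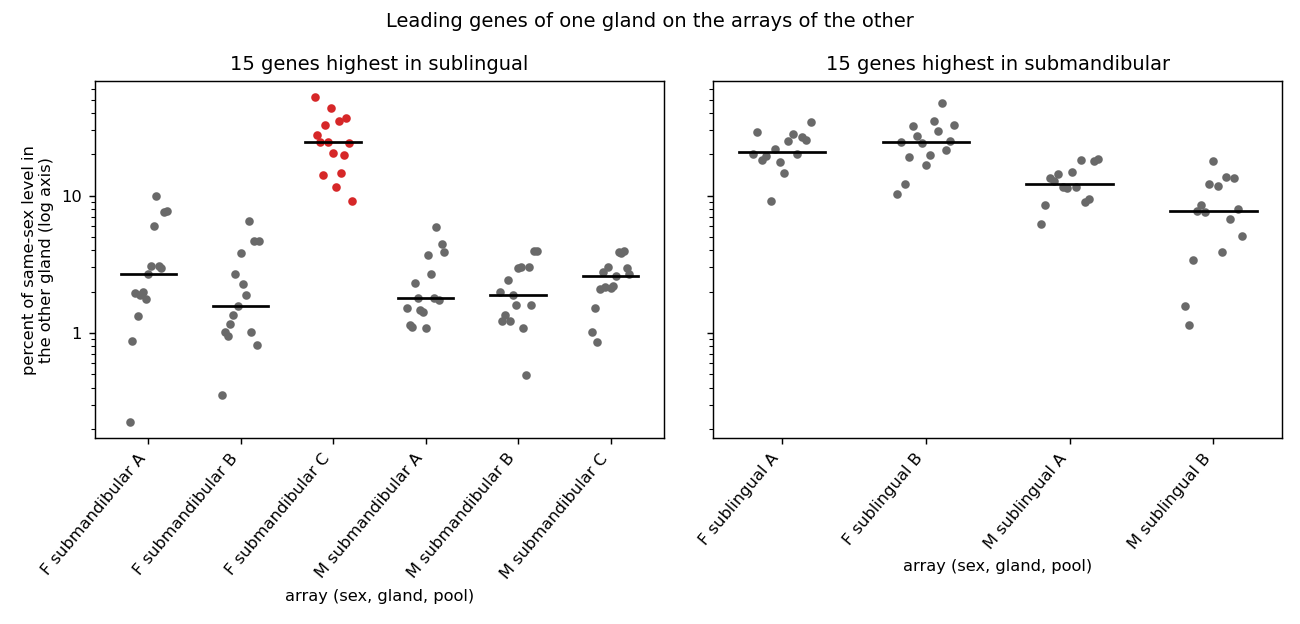
Levels of each gland's 15 leading genes on the arrays of the other gland, as percent of the same-sex mean of the gland in which they lead (vertical log axis; each point is a gene, each line the median of an array). Female submandibular C (red) has a median of 24.5% where the other 5 submandibular arrays have medians of 1.57% to 2.69%, and the 4 sublingual arrays have medians of 7.69% to 24.6%.

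Which transcripts differed between the glands? limma called 849 of 8227 probes (10.3%) at a Benjamini-Hochberg adjusted p under 0.05 and a log2 difference of at least 1, with the sexes weighted equally. Of these, 380 (4.62%) were higher in the submandibular and 469 (5.7%) in the sublingual gland. At an unadjusted p under 0.05 there were 2200 probes. The arrays of the glands did not overlap for 1141 probes (13.9%), and 633 probes were both called and without overlap. Over all probes tested the median log2 difference was 0.06. Differences below are submandibular minus sublingual, ± standard error, on 6 and 4 pools. Those within a sex, without a pool, with missing spots or against the parotid gland rest on other arrays. The 15 leading genes of each gland were the largest called differences, among probes with 1 gene symbol, whose arrays did not overlap. Those of the sublingual gland differed by -4.36 to -6.03, against 2.47 to 3.90 for the 15 leading genes of the submandibular gland.

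Without female submandibular C the same fit made 917 calls, of which 813 were shared with the 849 in the same direction. With array set as a block in the 10 arrays there were 891, of which 799 were shared. Set 1 alone gave 847 calls, 55.3% of them higher in the submandibular gland, and set 2 alone 373, with 22.5% higher there, against 44.8% in the full fit.

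**Figure D2:**
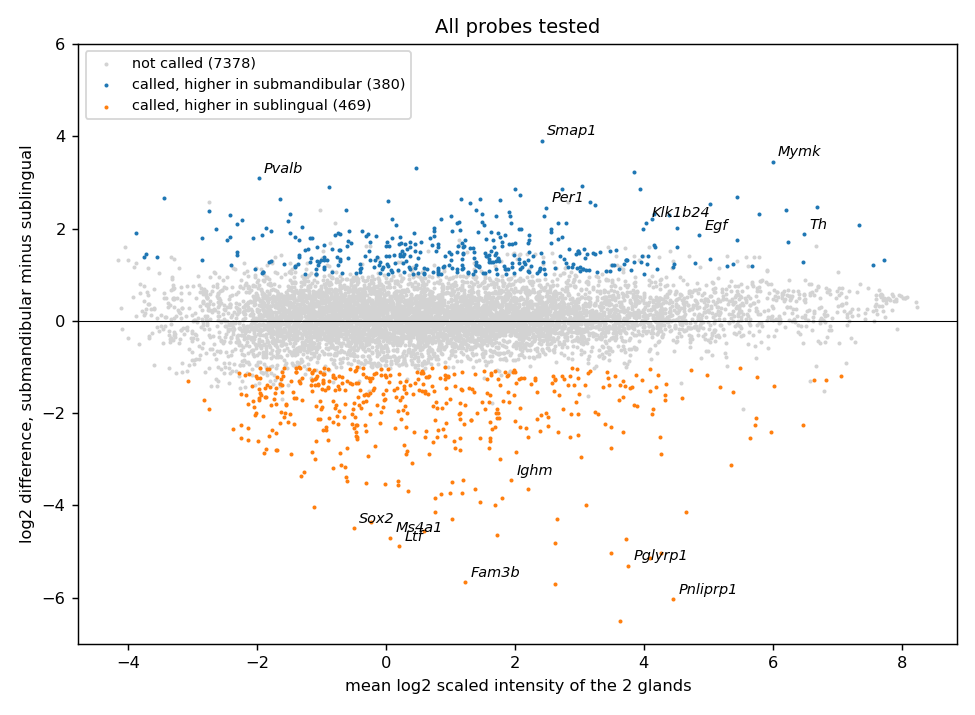
Log2 difference between the glands (vertical axis, submandibular minus sublingual) against the mean log2 scaled intensity of both glands for the 8227 probes tested. Blue points are the 380 probes called higher in the submandibular gland and orange points the 469 called higher in the sublingual gland, whose differences reach further from 0.

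The sexes were also taken apart. Within females 305 probes were called (3.71%; 104 higher in the submandibular and 201 in the sublingual gland) and within males 831 (10.1%; 402 and 429). The female count fell to 146 without submandibular A, 182 without submandibular B, 151 without sublingual A and 104 without sublingual B, and the male count to 359 without sublingual B. Without female submandibular C the female count rose to 382, and with array weights it was 483. Whether the gland difference itself depended on sex was tested by an interaction, which passed for 1 probe of 8227 (0.0122%, with 349 at an unadjusted p under 0.05). That probe is named for Traf1, an adaptor of TNF receptor signalling. It read 0.971, 0.913 and 0.874 in female and 7.41, 4.63 and 5.29 in male submandibular pools, and 1.61 and 2.33 in female and 1.98 and 1.68 in male sublingual pools. The male submandibular arrays thus lay above all others, and the female submandibular arrays below all others. Its gland difference was 1.63 ± 0.31 in males (adjusted p = 0.00135) and -1.08 ± 0.31 in females (adjusted p = 0.06), a gap of 2.71 (adjusted p = 0.0468), and no interaction was called with any 1 of the 6 submandibular pools left out.

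The leading sublingual genes included several secreted proteins. Pnliprp1 read 123 and 215 in the female and 119 and 315 in the male sublingual pools, against 2.95, 3.87 and 1.98 in the male submandibular pools. Its difference was -6.03 ± 1.15 (limma adjusted p = 0.000854), and -7.29 without female submandibular C or -5.32 without female submandibular A. The sublingual level was 65.3-fold higher, with pool C the highest of the submandibular arrays. Fam3b encodes a secreted cytokine-like protein. It read 14.1 and 15.3 in female and 13.4 and 26.9 in male sublingual pools, and 0.288, 0.139 and 3.62 in female and 0.208, 0.256 and 0.163 in male submandibular pools, a difference of -5.67 ± 0.61 (adjusted p = 1.96e-06), and -6.36 without female submandibular C.

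Antibacterial proteins were among them. Pglyrp1, which binds bacterial peptidoglycan, read 100.2 and 56 in female and 83 and 112 in male sublingual pools. The submandibular pools read 1, 0.865 and 10.7 in females and 2.22, 2.36 and 2.01 in males, so all 6 lay below all 4 sublingual pools, at a difference of -5.31 ± 0.48 (adjusted p = 3.37e-07), and -5.89 without female submandibular C. Ltf encodes the iron-binding protein lactoferrin. It read 6.36 and 5.01 in female and 6.3 and 7.81 in male sublingual pools and 0.152, 0.217 and 1.16 in female and 0.0768, 0.21 and 0.149 in male submandibular pools, a 29.6-fold difference (-4.89 ± 0.46, adjusted p = 5.06e-07). Lysozyme followed: Lyz1 was 2.64-fold (-1.40 ± 0.38, adjusted p = 0.0133) and Lyz2, also a macrophage gene, 2.89-fold higher in the sublingual gland (-1.53 ± 0.33, adjusted p = 0.00234). The protease inhibitor gene Serpina1b was 8.01-fold higher there (-3.0 ± 0.35, adjusted p = 4.27e-06). None of these 5 genes had overlapping arrays between the glands, which held for 13.9% of all probes. For Pglyrp1 and Ltf this was a condition of their choice as leading genes.

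Sox2, a transcription factor of progenitor cells, was read at 3.47 and 2.37 in female and 3.97 and 3.94 in male sublingual pools. In the submandibular pools it read 0.217, 0.0234 and 0.697 in females, where 0.0234 is the floor set for low values, and 0.176, 0.155 and 0.117 in males. The difference was -4.49 ± 0.64 (adjusted p = 4.8e-05), and -3.81 without female submandibular B, the array at the floor. Lypd2 was dim, meaning below the 30th percentile of the array, on all 6 submandibular arrays and was at least 11.9-fold higher in the sublingual gland (-4.36 ± 0.58, adjusted p = 2.07e-05). Other leading probes carried the names Dmtn, Casp12, Gfap, Dffa, Tnfrsf11a, Hoxc4, Ms4a1, Isg20 and Htr2c, with differences from -4.56 to -5.69. Without female submandibular C, Dmtn differed by -6.51, Casp12 by -5.87 and Dffa by -5.82. Several of these genes are known from other tissues, Gfap from astrocytes and Htr2c from neurons. Gfap is also counted in the nerve and Schwann cell list below. What a probe reads beyond its annotation was not tested. Over the 10 arrays the log2 values of the 15 leading sublingual genes correlated pairwise at 0.762 to 0.997 (median 0.953), which is a description, since the genes were chosen for this pattern and share the arrays.

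**Figure D3:**
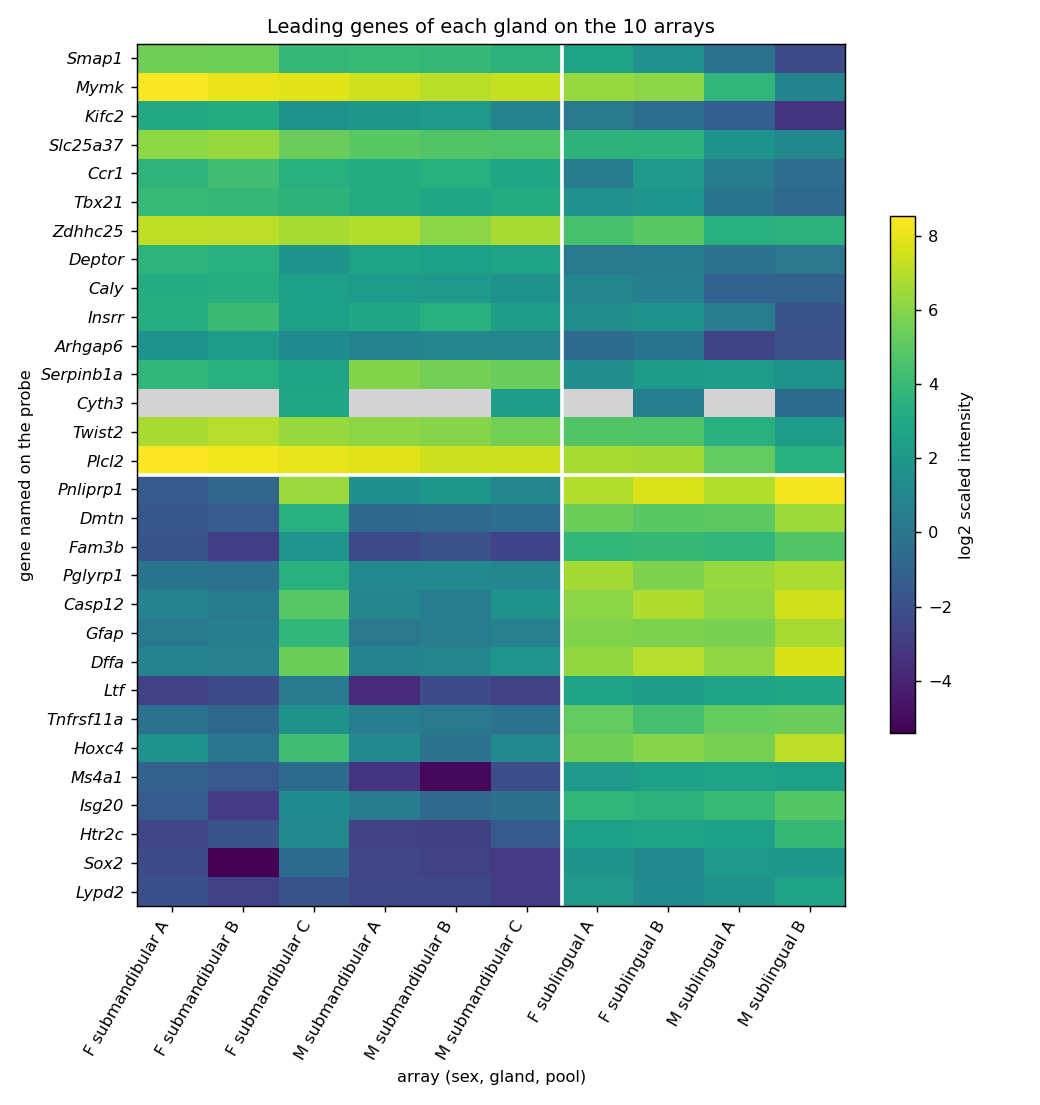
Log2 scaled intensity (colour scale) of the 15 leading submandibular genes (upper block) and the 15 leading sublingual genes (lower block) on the 10 arrays, with the glands parted by a vertical line; grey cells are missing spots. The sublingual genes are brighter in female submandibular C than in the other 5 submandibular arrays.

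Promoter windows of secreted products called higher in each gland are shown so that their start-proximal sequence can be compared, Egf and Klk1b24 for the submandibular and Pglyrp1 and Ltf for the sublingual gland. Each holds the 120 bases before the annotated start, 5′ to 3′ on the gene's strand, from RefSeq on build GRCm38.p6, and all 4 genes matched an entry there. The windows are chr3:129755323-129755442 on the minus strand for Egf, and on the plus strand chr7:44188116-44188235 for Klk1b24, chr7:18884570-18884689 for Pglyrp1 and chr9:111019172-111019291 for Ltf. Capitals mark an A and T rich motif, TTTAAA in the first pair and ATAAA in the second, which begins 27, 31, 28 and 30 bases before the start in that order.
Egf: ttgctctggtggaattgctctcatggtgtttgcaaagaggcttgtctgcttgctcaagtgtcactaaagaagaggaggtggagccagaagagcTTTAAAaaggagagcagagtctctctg
Klk1b24: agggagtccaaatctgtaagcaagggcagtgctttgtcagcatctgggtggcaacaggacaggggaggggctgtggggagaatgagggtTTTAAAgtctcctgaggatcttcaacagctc
Pglyrp1: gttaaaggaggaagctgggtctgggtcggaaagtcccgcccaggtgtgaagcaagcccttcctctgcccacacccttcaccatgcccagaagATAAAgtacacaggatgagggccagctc
Ltf: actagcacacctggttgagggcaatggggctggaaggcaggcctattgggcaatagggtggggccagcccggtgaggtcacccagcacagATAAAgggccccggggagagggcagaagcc
The motifs were chosen after the windows had been read. Among 27025 promoters, one window per gene, TTTAAA (its own reverse complement) lay in the last 40 bases of 1.94%. ATAAA lay there on the sense strand in 5.86%, and on either strand in 8.69%. ATAAA is not contained in TTTAAA, and a match is a description of the sequence only.

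The machinery for making mucins was described next. Spdef, a transcription factor of mucous secretory cells, read 17.1 and 15.6 in female and 19.2 and 19.4 in male sublingual pools, and 12.9, 12.6 and 13.1 in female and 4.84, 4.59 and 4.69 in male submandibular pools. All 4 sublingual arrays lay above all 6 submandibular arrays, at -1.19 ± 0.26 (adjusted p = 0.00306). In males the difference was -2.04 ± 0.37 (adjusted p = 0.000852) and in females -0.34 ± 0.37 (adjusted p = 0.756), and the interaction of sex and gland did not pass (adjusted p = 0.567). Agr2, a disulfide isomerase needed for mucin assembly, read 18.1 and 25.2 in female and 21.2 and 38.2 in male sublingual pools against 16.7, 11.9 and 20.3 in female and 7.81, 4.29 and 7.77 in male submandibular pools (-1.29 ± 0.24, adjusted p = 0.000619), where female submandibular C lay among the sublingual values. Creb3l1, a membrane-bound transcription factor of secretory cells, was 2.74-fold higher in the sublingual gland (-1.46 ± 0.34, adjusted p = 0.00478).

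Mucin-type glycans start with N-acetylgalactosamine, which Galnt enzymes attach, and are then extended and capped. Of 16 probes for mucin-type O-glycosylation 5 were higher in the sublingual gland and 1 in the submandibular (median -0.17, against 0.06 over all probes). Over all probes 5.7% were called higher in the sublingual and 4.62% in the submandibular gland, which is the background for every gene list below. Galnt4 read 1.09 and 0.868 in female and 1.41 and 1.6 in male sublingual pools and 0.167, 0.306 and 0.401 in female and 0.238, 0.288 and 0.241 in male submandibular pools, 4.58-fold apart (-2.20 ± 0.25, adjusted p = 3.05e-06). Galnt6 and the fucosyltransferase Fut9 were dim on all submandibular arrays and were at least 2.53-fold and 1.32-fold higher in the sublingual. Gcnt1, which builds core branches, differed by -1.34 ± 0.23 (adjusted p = 0.000333). Fut8, which differed by -1.18 ± 0.18 (adjusted p = 7.39e-05), is counted among the 5 but adds fucose to N-glycans rather than to mucin-type glycans. The exception was B3gnt3, which extends glycans with N-acetylglucosamine: it was higher in the submandibular gland, at 1.12 ± 0.25 (adjusted p = 0.00295).

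Genes that supply and add sialic acid or sulfate were listed separately. Of 29 such probes 9 were higher in the sublingual gland and 1 in the submandibular, against 5.7% and 4.62% of all probes, with a median of -0.63. Without female submandibular C these counts were 9 and 2 (median -0.67), and with the array set block 11 and 0 (median -0.57). The sialyltransferases St6galnac4 and St3gal6 were higher in the sublingual gland, the latter on both of its probes (-2.49 ± 0.51 for St6galnac4, -2.03 ± 0.34 and -2.0 ± 0.27 for St3gal6; adjusted p = 0.00147, 0.000255 and 2.45e-05). Slc35a1, which carries CMP-sialic acid into the Golgi, read 16.5 and 15.8 in female and 14.1 and 22.3 in male sublingual pools and 7.63, 5.82 and 12.7 in female and 5.11, 3.43 and 6.1 in male submandibular pools (-1.43 ± 0.33, adjusted p = 0.00405), with no overlap. St3gal1 read 11.8, 7.48 and 18.9 in female and 1.23, 1.35 and 1.33 in male submandibular pools, and 13.7 and 16.6 in female and 12.3 and 22.8 in male sublingual pools. Its male difference was -3.68 ± 0.54 (adjusted p = 0.000109) and its female difference -0.35 ± 0.54 (adjusted p = 0.844), while the interaction did not pass (adjusted p = 0.19).

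Gfpt1, the first enzyme of the path that makes hexosamines for glycans, read 6.92 and 4.86 in female and 7.12 and 9.39 in male sublingual pools. The submandibular pools read 2.74, 2.69 and 2.88 in females and 1.39, 1.56 and 1.57 in males. It was 3.37-fold higher in the sublingual gland (-1.75 ± 0.16, adjusted p = 3.2e-07), and called in females (-1.07 ± 0.22, adjusted p = 0.00821) and in males (-2.44 ± 0.22, adjusted p = 1.06e-06). Ugp2, which makes UDP-glucose, was the other called probe of 17 in the sugar nucleotide list (list median -0.41). Its difference of -1.21 ± 0.28 (adjusted p = 0.00473) was -0.90 without male sublingual B and then not called.

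Protein folding and export were described by 3 lists. Of 40 probes for folding in the endoplasmic reticulum 5 were higher in the sublingual gland and 0 in the submandibular, but the list median was 0.20. Dnajc10, a co-chaperone that reduces disulfides, read 63.8 and 83.2 in female and 109 and 220.5 in male sublingual pools and 3.73, 4.65 and 26.3 in female and 2.86, 4.39 and 8.03 in male submandibular pools, 17.7-fold apart (-4.15 ± 0.45, adjusted p = 2.15e-06). Ern1, a sensor of unfolded protein, was 7.35-fold higher in the sublingual gland (-2.88 ± 0.27, adjusted p = 4.99e-07). Pdia5 differed by -0.70 without female sublingual A, under the fold required. Txndc12 (-1.04) lost its call without any 1 of 4 pools, and its value nearest to 0 with a pool left out was -0.86. Agr2, described above, is also counted among the 5. Of 27 probes for translocation into the endoplasmic reticulum and N-glycosylation 1 was higher in each gland (median 0.06). Sec63, a translocation factor, was higher in the submandibular gland with no overlap (1.58 ± 0.32, adjusted p = 0.00127). Mogs, a glucosidase that trims N-glycans, differed by -1.02 ± 0.26 and was not called with any 1 of 4 pools left out (adjusted p up to 0.0553). In vesicle traffic 2 of 44 probes were called, both higher in the sublingual gland, where 5.7% of all probes were called (list median -0.06): Sec23b, a coat protein of vesicles leaving the endoplasmic reticulum, at -1.91 ± 0.22 (adjusted p = 4.37e-06), and Syt7, a calcium sensor of secretion, at least 1.56-fold higher.

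**Figure D4:**
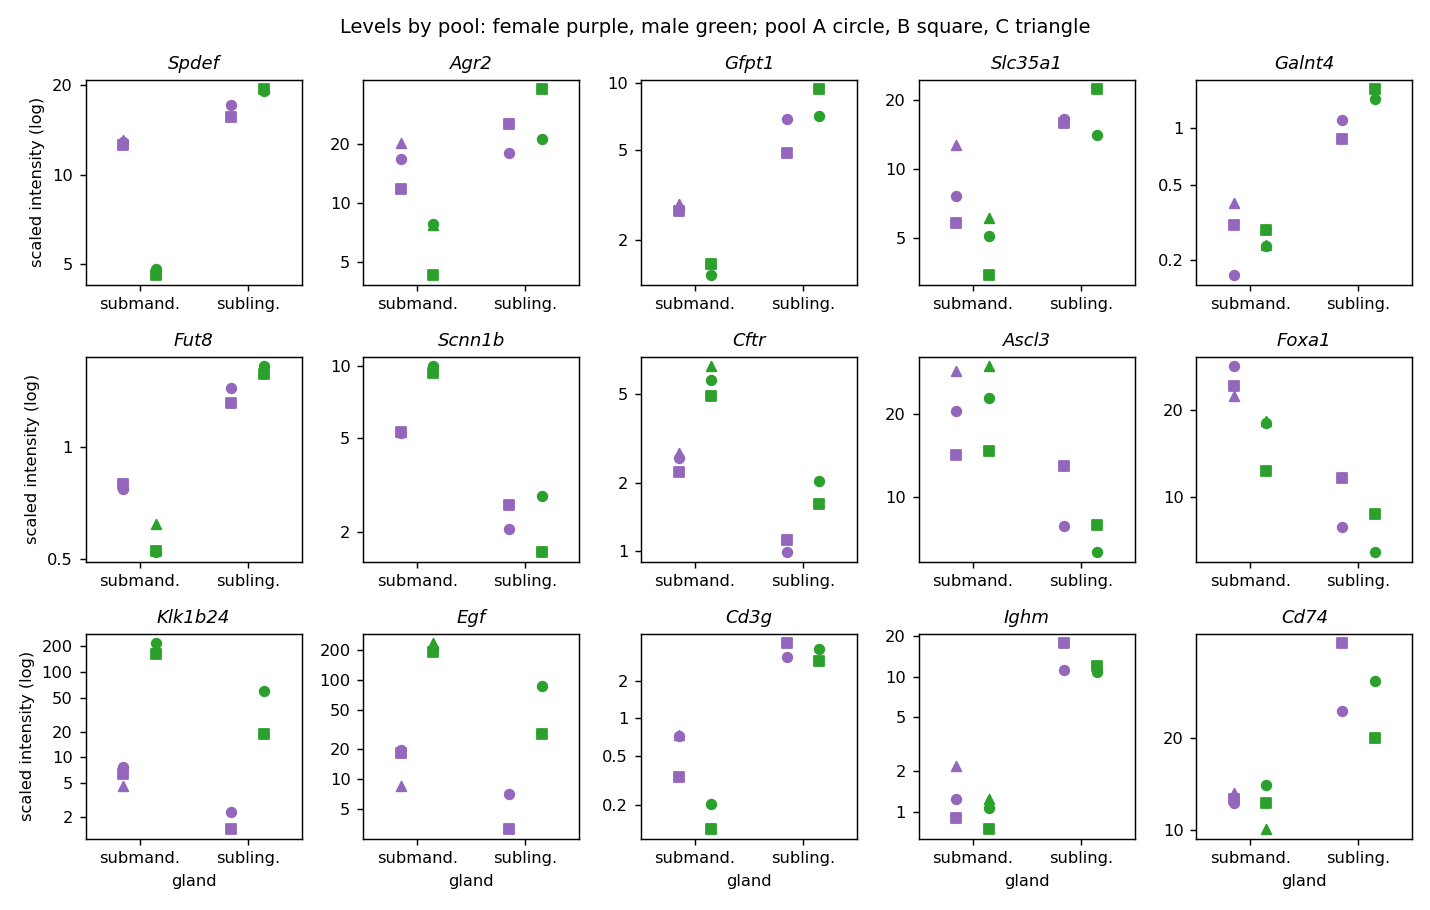
Scaled intensity (log axis) of 15 genes by gland, with each pool a point (purple female, green male; circle, square and triangle for pools A, B and C). Spdef, Gfpt1, Slc35a1, Galnt4, Fut8, Cd3g, Ighm and Cd74 are higher in all 4 sublingual pools than in any submandibular pool, and Scnn1b, Cftr, Ascl3 and Foxa1 are lower; Klk1b24 and Egf overlap between glands and are higher in males than in females in both.

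The lists of secretory products were taken next. Of 7 measured mucous and demilune products (of 28 listed genes, 11 on the array) 2 were higher in the submandibular gland, 1 in the sublingual and 4 were not called (median 0.41). Muc13, a membrane mucin, read 3.95, 3.77 and 2.73 in female and 16.3, 15.3 and 13.8 in male submandibular pools, and 1.25 and 0.854 in female and 3.98 and 1.14 in male sublingual pools (2.28 ± 0.35, adjusted p = 0.000112). Muc5ac, a gel-forming mucin, was 2.84-fold higher in the submandibular gland (1.5 ± 0.29, adjusted p = 0.00106) with no overlap between arrays. Muc1, a membrane mucin, differed by 0.66 ± 0.22 (adjusted p = 0.0434), under the fold required. Nupr1, a stress-induced nuclear protein that is not itself secreted, was the listed gene higher in the sublingual gland (-1.19 ± 0.32, adjusted p = 0.0115) but not without female sublingual B (-0.99) or male sublingual B (-0.86). Car6, the secreted carbonic anhydrase, lay near the top of the scale on all 10 arrays (at least 80% of the array maximum), and its difference was 0.41 ± 0.32. Tff1 (0.16 ± 0.51) and Bpifb2 (0.03 ± 0.34) were not called.

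Among 9 seromucous acinar products, 2 were higher in the submandibular gland and 3 (Ltf, Lyz1 and Lyz2) in the sublingual, with a median of -0.27. Mucl1, a small mucin-like protein, read 3.56, 2.39 and 1.77 in female and 0.624, 0.469 and 0.415 in male submandibular pools, and 0.742 and 0.728 in female and 0.101 and 0.157 in male sublingual pools. Its gland difference was 1.75 ± 0.39 in females and 1.98 ± 0.39 in males (1.86 ± 0.28 with both sexes, adjusted p = 7.38e-05). Scgb1b2, an androgen-binding protein family member, was 2.49-fold higher in the submandibular gland (1.31 ± 0.31, adjusted p = 0.00534). It lay near the top of the scale on 5 arrays, and its call was lost without male sublingual B (1.01, adjusted p = 0.0609) and under quantile normalization (0.79, adjusted p = 0.176). Lpo, the salivary peroxidase (0.62 ± 0.22), Dmbt1 (-0.45 ± 0.23), Sval2 (-0.27 ± 0.35) and Wfdc18 (0.13 ± 0.47) were not called. Of 9 serous digestive products 2, Pnliprp1 and the elastase Cela1 (-1.36 ± 0.31, adjusted p = 0.00432), were higher in the sublingual gland and 0 in the submandibular. Amy1, the amylase of serous cells, differed by 0.09 ± 0.75 (adjusted p = 0.961).

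Granular duct products were taken up next, of which 3 of 7 measured probes were higher in the submandibular gland, against 4.62% of all probes. Klk1b24, a kallikrein protease, read 218, 162 and 196 in male and 7.78, 6.4 and 4.64 in female submandibular pools, and 60.4 and 19 in male and 2.27 and 1.43 in female sublingual pools. Its gland difference was 2.13 ± 0.37 (adjusted p = 0.000607), with 2.49 ± 0.52 in males (adjusted p = 0.0042) and 1.77 ± 0.52 in females (adjusted p = 0.071). Egf, the epidermal growth factor precursor, read 200.3, 189 and 233 in male and 19.7, 18.4 and 8.46 in female submandibular pools, and 86.5 and 28.6 in male and 7.01 and 3.09 in female sublingual pools (1.85 ± 0.40, adjusted p = 0.00234). Within each sex every submandibular pool lay above every sublingual pool for both genes. Sublingual A had the higher level of the 2 sublingual pools in each sex, and female submandibular C the lowest of the submandibular pools. Egf lay at 80% or more of the array maximum on 1 array.

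Smr2, a prohormone-like product of the ducts, was measured in set 1 only. It read 126 and 46.3 in male submandibular pools A and B and 3.06 and 3.17 in the female ones, with 10.04 in male and 3.09 in female sublingual A (1.47 ± 0.35, adjusted p = 0.0117). The call rests on 1 sublingual pool per sex and was not made from the 10 arrays alone (adjusted p = 0.0926). Klk1b5 was near the top of the scale on 7 arrays and differed by 0.52 ± 0.82. The growth factors Tgfb1 (-0.80 ± 0.28), Igf1 (-0.63 ± 0.22) and Tgfa (0.25 ± 0.28) were not called. No granular duct probe was higher in the sublingual gland (list median 0.52; 1.02 in array set 1 and -0.04 in set 2).

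Transporters of the striated and excretory ducts followed. Of 17 probes for duct salt and acid-base transport 5 were higher in the submandibular gland and 0 in the sublingual, against 4.62% and 5.7% of all probes. The list median was 0.53. Scnn1b, a subunit of the epithelial sodium channel, read 5.22, 5.26 and 5.28 in female and 10.0, 9.34 and 9.75 in male submandibular pools, and 2.06 and 2.59 in female and 2.83 and 1.64 in male sublingual pools, 3.2-fold apart with no overlap (1.68 ± 0.27, adjusted p = 0.000163). Kcnj16, a potassium channel, read 1.29, 1.52 and 0.838 in female and 3.56, 5.14 and 3.79 in male submandibular pools, and 0.571 and 0.415 in female and 1.26 and 0.504 in male sublingual pools (1.82 ± 0.28, adjusted p = 7.98e-05). Cftr, the chloride channel, was 2.74-fold higher in the submandibular gland (1.45 ± 0.38, adjusted p = 0.0116), but reached an adjusted p of 0.0582 without male sublingual B (1.36). Slc4a4, a bicarbonate transporter, and Slc5a5, the iodide transporter, were called as well, at 1.49 ± 0.38 and 1.82 ± 0.57. Slc4a4 read 0.579, 0.72 and 0.35 in female and 13.2, 14.7 and 7.01 in male submandibular pools, and 0.559 and 0.337 in female and 4.07 and 0.704 in male sublingual pools. Its difference was 0.28 ± 0.54 in females (adjusted p = 0.87) and 2.71 ± 0.54 in males (adjusted p = 0.00175), and the interaction did not pass (adjusted p = 0.567). Without male sublingual A, Slc4a4 differed by 2.13 and Slc5a5 by 2.76, and without female sublingual A Slc5a5 differed by 2.43. Without male sublingual B both were under the fold required (0.86 and 0.88), and without female sublingual B neither was called (1.31, adjusted p = 0.0563, and 1.22, adjusted p = 0.221). Slc5a5 also lost its call without female submandibular A, male submandibular B or male submandibular C, and was dim on all sublingual arrays and at least 1.06-fold higher in the submandibular. Scnn1a differed by 0.61 ± 0.26 (adjusted p = 0.128). Of 23 probes for fluid secretion by acini none was called (limma, median 0.34), although Atp1b1, a subunit of the sodium pump, had no overlap between glands (0.86 ± 0.17, adjusted p = 0.00105).

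Transcription factors of duct cells were also examined. Ascl3, a factor of duct progenitors and ionocyte-like duct cells, read 20.6, 14.1 and 28.9 in female and 23, 14.7 and 29.99 in male submandibular pools, and 7.79 and 12.9 in female and 6.25 and 7.87 in male sublingual pools (1.32 ± 0.31, adjusted p = 0.0046). Foxi1, a master factor of ionocytes, differed by 0.87 ± 0.23 (adjusted p = 0.0113), under the fold required. Foxa1, a forkhead factor of endodermal and glandular epithelia, was 2.33-fold higher in the submandibular gland (1.22 ± 0.21, adjusted p = 0.000322), and called in females (1.37 ± 0.30) as in males (1.08 ± 0.30). Over the 45 probes for secretory cell transcription factors, 4 were higher in each gland (median 0.23). In the keratin and duct epithelium list 5 of 30 were higher in the submandibular and 4 in the sublingual gland (median 0.24), or 3 and 4 without female submandibular C. Gsta4, a glutathione transferase counted there, was 2.95-fold higher in the submandibular gland with no overlap (1.56 ± 0.27, adjusted p = 0.000322). Krt10 (2.08) and Cldn1 (1.15) were also higher there, while Slpi (-2.21), Pigr (-1.67) and Krt1 (-1.64) were higher in the sublingual gland. Unlike Gsta4, each of these lost its call with some single pool left out.

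The 15 leading submandibular genes are described here by the names on their probes. Smap1, which regulates clathrin-coated vesicles, read 44.8, 43.8 and 14.4 in female and 16.4, 14.6 and 11.6 in male submandibular pools, and 6.07 and 3.13 in female and 0.869 and 0.221 in male sublingual pools (3.90 ± 0.48, adjusted p = 9.94e-06). Slc25a37, an iron carrier of mitochondria, read 71.4, 82.9 and 39.6 in female and 31.3, 26.7 and 25.5 in male submandibular pools, and 12 and 11.8 in female and 3.52 and 2.13 in male sublingual pools (2.86 ± 0.25, adjusted p = 3.2e-07). Deptor, an inhibitor of mTOR kinase, was 6.26-fold higher in the submandibular gland (2.65 ± 0.29, adjusted p = 2.69e-06). Levels in females exceeded those in males on every submandibular array for 9 of the 15 genes and on every sublingual array for 14. The share of all probes with such an order was not counted, and these genes vary together across the arrays. Serpinb1a, a neutrophil elastase inhibitor, was the 1 gene with every male above every female submandibular array. It read 61.1, 48.5 and 39.8 in male and 13.7, 10.3 and 6.61 in female submandibular pools, and 2.63 and 4.59 in female and 4.65 and 3.3 in male sublingual pools (2.57 ± 0.31, adjusted p = 6.64e-06). For the rest of the 15 the sexes overlapped on the submandibular arrays. All 15 were called within males and 11 within females, against 10.1% and 3.71% of all probes. The genes were chosen on these same arrays, so such calls are largely built in. The pairwise correlation of the 15 over the 10 arrays had a median of 0.945 (0.526 to 0.997), again a description of genes chosen for this pattern.

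The remaining leading names were Mymk, Kifc2, Ccr1, Tbx21, Zdhhc25, Caly, Insrr, Arhgap6, Cyth3, Twist2 and Plcl2, with differences of 2.47 to 3.45. Mymk is known as a membrane protein of fusing myoblasts. Its probe read 352, 266 and 240.3 in female and 185, 136 and 155 in male submandibular pools, 82.8 and 69.5 in female and 13.5 and 1.81 in male sublingual pools. Its difference was 2.72 without male sublingual B and 4.17 without male sublingual A. This order of the sexes was opposite to that of the other muscle probes, whose summed level was 11.06, 11.02 and 8.75 in female and 37.6, 30.5 and 37.2 in male submandibular pools. What these probes read beyond their annotation was not tested. Cyth3 was measured only in set 2, on 1 submandibular and 1 sublingual pool per sex.

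Steroid metabolism and the clock were examined next, against 4.62% of all probes called higher in the submandibular gland. Sult1e1, which sulfates estrogens, read 140.4, 89.7 and 83.2 in male and 0.777, 0.208 and 0.292 in female submandibular pools, and 17.9 and 4.69 in male and 0.15 and 0.133 in female sublingual pools (2.41 ± 0.46, adjusted p = 0.000916). It was 1 of 3 probes of 22 in the sex steroid list that were higher in the submandibular gland, with 0 higher in the sublingual (median 0.61). The other two, Hsd17b3 (2.19 ± 0.67) and Hsd11b1 (1.29 ± 0.37), lost their calls with any of 7 and any of 4 pools left out. Over the 10 such fits their differences ran from 1.81 to 2.68 (adjusted p up to 0.122) and from 1.15 to 1.44 (adjusted p up to 0.0771). Per1, a core clock gene that also responds to glucocorticoids, read 20.02, 18.7 and 16.7 in female and 10.5, 8.17 and 9.43 in male submandibular pools, and 4.15 and 4.95 in female and 1.12 and 1.42 in male sublingual pools. It was 5.48-fold higher in the submandibular gland without overlap (2.45 ± 0.18, adjusted p = 2.52e-08), the one probe called of 35 for immediate early, stress and clock genes (median 0.12). The labels give no time of day for collection.

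Mitochondrial genes had list medians above the 0.06 of all probes, with few calls. Markers of fat and muscle had medians on the same side: 0.67 for adipocyte probes, whose summed level of 106 to 241 in the submandibular and 72.9 to 112 in the sublingual pools overlapped, and 0.84 for skeletal muscle, where 12 of 28 probes were higher in the submandibular gland. Their part in the mitochondrial medians was not tested. The median was 0.47 over 51 probes for oxidative phosphorylation, of which 1 was called, and 0.46 over 40 probes for the citrate cycle and fatty acid oxidation, of which 4 were higher in the submandibular gland and 0 in the sublingual. Acaa2, a thiolase of fatty acid oxidation, read 7.46, 7.01 and 7.49 in female and 9.57, 7.18 and 8.08 in male submandibular and 3.23 and 2.33 in female and 2.31 and 3.41 in male sublingual pools (1.48 ± 0.26, adjusted p = 0.000351). Pcx, pyruvate carboxylase, differed by 1.48 ± 0.29 (adjusted p = 0.000994) and Etfb, an electron carrier, by 1.25 ± 0.22 (adjusted p = 0.000358). The called oxidative phosphorylation probe, Cox7a1 (1.19 ± 0.39), names a muscle form of a cytochrome oxidase subunit and was not called with any 1 of 7 pools left out. Of 55 probes for cytosolic ribosomal proteins none was called (median 0.11), and the list median was 0.36 in females and -0.12 in males.

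Transcripts of the T cell list were mostly higher in the sublingual gland. Of 14 T cell probes 11 were higher there and 1 in the submandibular (median -2.02), and without female submandibular C the counts were the same (median -1.99). Over all probes 5.7% were higher in the sublingual and 4.62% in the submandibular gland. Cd3g, part of the T cell receptor complex, read 3.13 and 4.03 in female and 3.62 and 2.88 in male sublingual pools, and 0.726, 0.339 and 0.733 in female and 0.204, 0.128 and 0.131 in male submandibular pools (-3.54 ± 0.41, adjusted p = 4.55e-06). Lat (-2.80 ± 0.29), Cd3d (-2.60 ± 0.33), Cd8b1 (-2.23 ± 0.48) and Cd2 (-2.15 ± 0.25), genes of T cell signalling and surface proteins, also had no overlap, and Cd8a was at least 2.51-fold higher. The probe called the other way, Ptprcap (1.12 ± 0.23), was singled out after its values were seen and was under the fold required without female submandibular B (0.97). The summed level of all 14 T cell probes was 28.7 to 54.8 in the 6 submandibular and 40.7 to 62.5 in the 4 sublingual pools, which overlap. Without Ptprcap the sums were 13.6 to 22.6 and 32.0 to 51.5. The probe named for Tbx21, a T cell transcription factor outside this list, was higher in the submandibular gland (2.73 ± 0.30, limma adjusted p = 2.69e-06). What that probe reads beyond its annotation was not tested.

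B cell genes divided. Ighm, the heavy chain of IgM, read 11.2 and 17.6 in female and 10.9 and 12 in male sublingual pools, and 1.25, 0.896 and 2.19 in female and 1.07, 0.743 and 1.26 in male submandibular pools, 10.9-fold apart (-3.45 ± 0.41, adjusted p = 5.31e-06). Ms4a1, which encodes CD20, read 4.39 and 5.4 in female and 6.07 and 5.72 in male sublingual pools, and 0.482, 0.318 and 0.709 in female and 0.105, 0.0291 and 0.229 in male submandibular pools (-4.70 ± 0.68, adjusted p = 5.41e-05). Cd79b, a signalling chain of the B cell receptor, was 11.9-fold higher in the sublingual gland (-3.57 ± 0.42, adjusted p = 8.56e-06). Probes for its partner chain Cd79a (1.51 ± 0.47, adjusted p = 0.034; singled out after its values were seen, and not called without either submandibular A, male submandibular C or either sublingual A, adjusted p up to 0.211) and for Cd22 (1.82 ± 0.43, adjusted p = 0.00513) were higher in the submandibular gland, the latter not without male sublingual B (1.51, adjusted p = 0.0502). Jchain, the joining chain of secreted IgA, and Pigr, which carries it into saliva, were higher in the sublingual gland at -2.13 ± 0.62 and -1.67 ± 0.50, calls lost without any 1 of 4 pools (Jchain without female submandibular B, male submandibular C or either sublingual B, adjusted p up to 0.105; Pigr without either submandibular A or either sublingual A, adjusted p up to 0.169). In all, 7 of 16 probes for immunoglobulin transport and plasma cells were higher in the sublingual and 2 in the submandibular gland (median -0.52), against 5.7% and 4.62% of all probes.

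Antigen presentation genes were examined as well. Cd74, the invariant chain of class II molecules, read 24.6 and 40.9 in female and 30.8 and 19.99 in male sublingual pools, and 12.3, 12.7 and 13.2 in female and 14, 12.3 and 10.03 in male submandibular pools (-1.19 ± 0.19, adjusted p = 0.000183). H2-Eb1 differed by -1.30 ± 0.23 (adjusted p = 0.000384), H2-DMa by -1.20 ± 0.25 and their regulator Ciita by -1.5 ± 0.36. Of 21 macrophage and class II probes 6 were higher in the sublingual and 0 in the submandibular gland (median -0.52, with -0.12 in set 1 and -0.96 in set 2), and none of 8 mast cell probes was called (limma, median 0.31). The summed macrophage and class II level was 98.5 to 129 in the submandibular and 169 to 257 in the sublingual pools. How far lymphoid cells take part in the other sublingual-high genes was not tested.

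Skeletal muscle genes were compared as well. Of 28 probes 12 were called, all higher in the submandibular gland, against 4.62% of all probes (median 0.84, with 0.23 in females and 1.29 in males). Pvalb, a calcium buffer of fast fibres, read 4.09, 2.63 and 3.64 in male and 0.33, 0.274 and 0.0471 in female submandibular pools, and 0.127 and 0.0667 in male and 0.0234 and 0.294 in female sublingual pools. It was dim on all sublingual arrays and at least 2.22-fold higher in the submandibular (3.09 ± 0.60, adjusted p = 0.000954). Pvalb differed by 2.17 without female sublingual A, the array at the floor, and by 4.0 without female sublingual B, and Tnnc2 by 1.99 and 3.81. The troponin genes Tnnc2 (2.90 ± 0.66, adjusted p = 0.00435) and Tnnt3 (2.32 ± 0.56, adjusted p = 0.00564; dim on all sublingual arrays and at least 2.4-fold higher in the submandibular) were also called, with all 3 male submandibular pools above the other 7 pools. No probe of the 12 passed the interaction test of sex and gland. Over the 25 probes of the list other than Mymk that were measured on all 10 arrays, the summed level was 7.24 to 13.4 in the 4 sublingual pools, against 8.75 to 11.1 in the female and 30.5 to 37.6 in the male submandibular pools. Whether muscle beside the gland entered the pools was not tested.

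Nerve, vessel, stromal and fat cell genes were also listed. Over all probes 4.62% were called higher in the submandibular and 5.7% in the sublingual gland. The small counts in these lists were not tested against those shares. Th, the rate-limiting enzyme of catecholamine synthesis, read 216, 193 and 200.2 in female and 141, 141 and 153 in male submandibular pools, and 82.8 and 94.6 in female and 40.4 and 15.1 in male sublingual pools (1.87 ± 0.25, adjusted p = 2.65e-05), with no overlap. Of 12 nerve and Schwann cell probes 2 were higher in each gland (median 0.36), Cnp, a myelin enzyme, being higher in the sublingual (-1.26 ± 0.19, adjusted p = 7.8e-05). The other probe higher there was Gfap (-5.04 ± 0.59), named above among the leading sublingual genes. Of 15 endothelial probes 2 were called, Pecam1 (-1.15 ± 0.25) and Flt4 (-1.28 ± 0.42), both higher in the sublingual gland. Pecam1 fell under the fold required without female sublingual A (-0.98) or male sublingual A (-0.82), and the Flt4 call was lost with any 1 of the 10 pools left out. Of 30 collagen and fibroblast probes 3 were higher in the submandibular gland and 1, Thy1 (-1.62 ± 0.36, adjusted p = 0.00338), in the sublingual (median 0.47), or 5 and 1 without female submandibular C. Thy1 also marks T cells in the mouse. Of 12 adipocyte probes 2 were higher in the submandibular gland and 1 in the sublingual (median 0.67). Slc2a4, the insulin-responsive glucose transporter of fat and muscle, differed by 1.33 ± 0.24 (adjusted p = 0.000425) with no overlap. Cidea, a lipid droplet protein (1.71 ± 0.50), was not called without female submandibular C, male submandibular A, female sublingual A or male sublingual B (adjusted p up to 0.123). Cebpa, a transcription factor of fat and other cells (-1.04 ± 0.22), was not called without female submandibular A or male sublingual A (nearest to 0 at -0.96). Of 35 cell cycle probes 1 was called: Foxm1, a factor of dividing cells, read 13.8 and 46.7 in female and 16.8 and 36.2 in male sublingual and 7.1, 4.1 and 8.08 in female and 6.4, 3.31 and 3.54 in male submandibular pools (-2.29 ± 0.39, adjusted p = 0.000267).

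**Figure D5:**
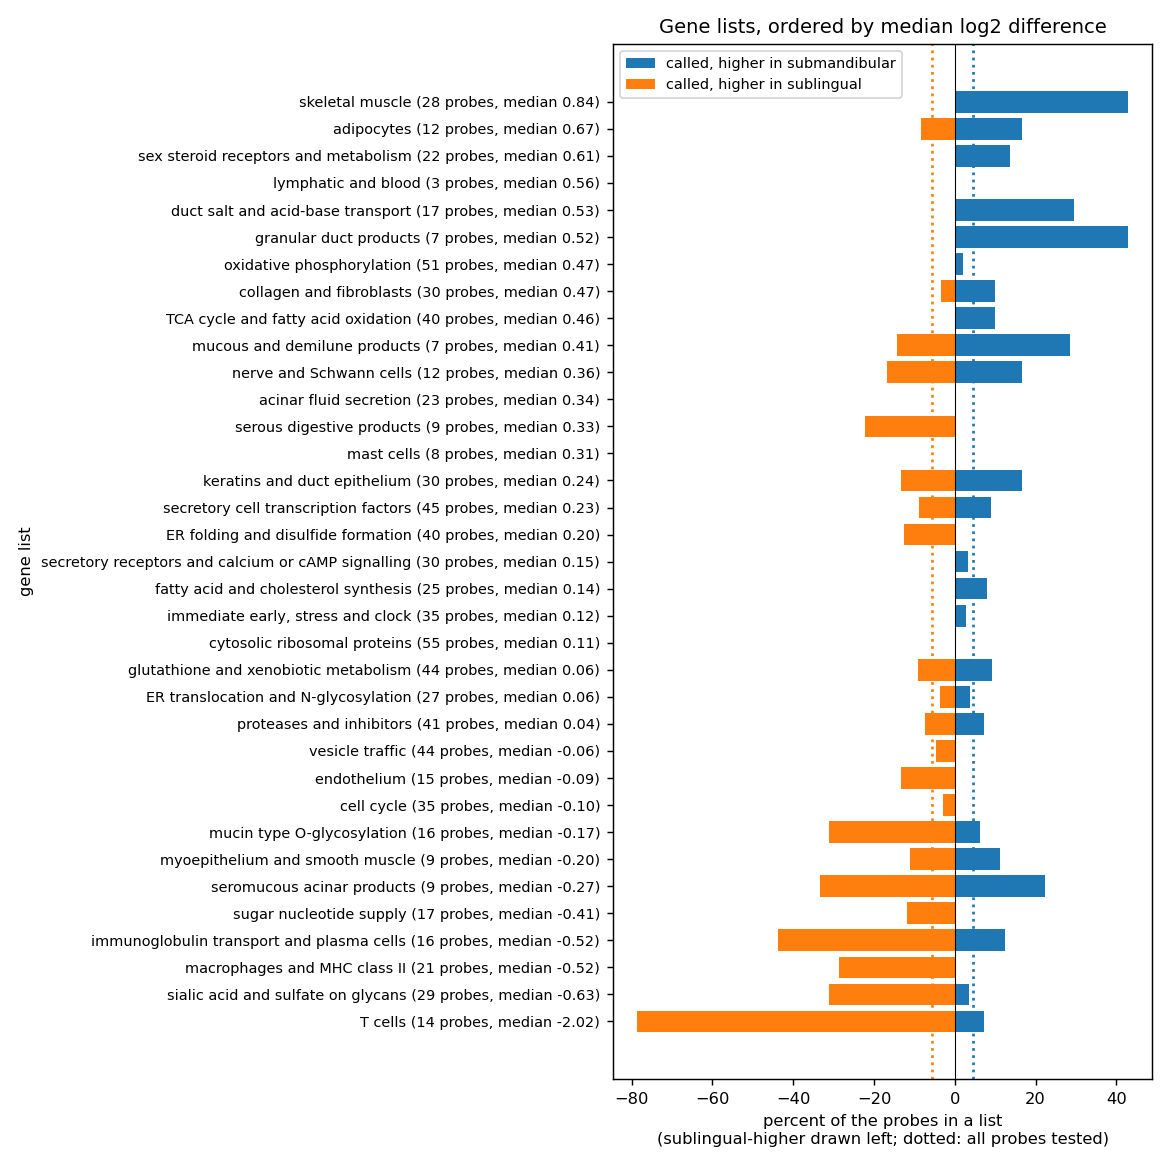
Percent of the probes of each gene list called higher in the submandibular gland (blue, right of 0) or the sublingual gland (orange, drawn left of 0), ordered by the list's median log2 difference; dotted lines give 4.62% and 5.7%, the shares over all probes tested. Skeletal muscle (12 of 28) and granular duct (3 of 7) lead on the submandibular side and T cells (11 of 14) on the sublingual side; numbers of probes differ between lists.

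Of 44 probes for enzymes of detoxification 4 were higher in each gland. Over all probes 4.62% were higher in the submandibular and 5.7% in the sublingual gland, and the median was 0.06 for the list as for all probes. Gsta3, a glutathione transferase, was 4.96-fold higher in the sublingual gland (-2.31 ± 0.33, adjusted p = 5.05e-05). Adh1, an alcohol dehydrogenase that also oxidizes retinol, read 14.9, 14.3 and 17.5 in female and 5.16, 3.22 and 3.83 in male submandibular pools, and 27.4 and 17.3 in female and 29.6 and 45.6 in male sublingual pools. Its difference was -0.48 ± 0.35 in females (adjusted p = 0.578) and -3.20 ± 0.35 in males (adjusted p = 6.41e-06), and the interaction did not pass (adjusted p = 0.0697). Gsta2 read 1.43, 0.745 and 0.779 in male and 0.13, 0.0964 and 0.124 in female submandibular pools, against 0.195 and 0.0746 in male and 0.0911 and 0.174 in female sublingual pools (1.42 ± 0.28, adjusted p = 0.00131), and it was dim on all sublingual arrays, so no fold is given. The female difference alone was -0.12 (adjusted p = 0.925). Of the proteases and inhibitors 3 of 41 were higher in each gland, against the same shares over all probes (median 0.04). Anpep, a membrane aminopeptidase, was 2.86-fold higher in the submandibular gland with no overlap (1.52 ± 0.20, adjusted p = 2.27e-05), and Serpinb6a, an intracellular protease inhibitor, read 137, 132 and 145 in male and 30.6, 20.8 and 25.7 in female submandibular pools and 43.3 and 35.4 in male and 18.3 and 16 in female sublingual pools (1.19 ± 0.19, adjusted p = 0.000164).

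The parotid gland, a serous salivary gland, gives another level for these genes. The comparisons below share the submandibular and sublingual arrays with those above, so they are set side by side only. Limma called 1381 probes (16.8%) between submandibular and parotid and 1132 (13.8%) between sublingual and parotid. Agr2 had mean levels of 10.1 in the submandibular, 24.6 in the sublingual and 0.719 in the parotid gland, or 3.81 ± 0.24 and 5.10 ± 0.26 relative to the parotid. Spdef lay at 7.79, 17.8 and 3.19 in that order, and Gfpt1 at 2.04, 6.89 and 1.28. Agr2 and Spdef were called higher than the parotid in both glands. Gfpt1 was called in the sublingual gland (2.43 ± 0.17), while its submandibular difference of 0.68 ± 0.16 was under the fold required. Egf was also higher than the parotid in both, by 4.82 ± 0.40 in the submandibular and 2.97 ± 0.43 in the sublingual gland. Per1 and Ascl3 differed from the parotid in the submandibular gland (2.59 ± 0.18 and 1.29 ± 0.31) but by 0.14 ± 0.19 and -0.03 ± 0.34 in the sublingual. Mean levels of Cd3g and Ighm in the parotid were 0.952 and 3.56 against 0.292 and 1.16 in the submandibular and 3.39 and 12.7 in the sublingual gland. All 15 leading sublingual genes were called higher in the sublingual than in the parotid gland, and 8 of the 15 leading submandibular genes were called higher in the sublingual than in the parotid gland as well. The sublingual genes were chosen on the same sublingual arrays, so their count is largely built in. Over all probes, the 13.8% called between sublingual and parotid covers both directions.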

How the data were processed

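RNA of 26 pools, 10 of them submandibular or sublingual, was measured on 10500 array probes. The deposited values are linear intensity values. The platform, labelling, background correction and scaling that the authors used are not given in the sources used here. Some values other than -1 lie below 0, and whether background was subtracted is not stated. Read from the values, -1 marked a missing spot (852 of the values on the 10 arrays), and array medians agreed within 0.0403 on the log2 scale, so no further normalization was applied. Values under 0.0234, the 1st percentile of positive values, were set to that floor before log2.

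A probe was kept if some group of gland and sex (10 in all) had it at or above the 30th percentile throughout, which left 8227. Of the 10500 probes, 8983 had 1 gene symbol, 1516 none and 1 several, and 8975 matched RefSeq by gene identifier. limma 3.58.1 in R 4.3.3 fitted the means of the 10 groups on all 26 arrays (16 residual degrees of freedom). The gland contrast weighted the sexes equally. A probe was called at a Benjamini-Hochberg adjusted p under 0.05 over all 8227 probes and an absolute log2 difference of at least 1. Where a probe was below the 30th percentile on every array of 1 gland, a lower bound on the fold is given against that percentile. The files carry no background flag, so this is a cut on dim values and not a test against background. The procedure was tested on simulated data. The number of arrays limits the precision.

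Genes named were the 15 largest differences per direction among called, non-overlapping probes with 1 symbol, up to 6 called members of each gene list (2 where none was called), every measured member of 3 product lists, and probes with a sex-by-gland difference. Members and lists were chosen with earlier results of these data known. Alternatives covered the arrays fitted, the filter, floor, offset, scaling, array weights, array set, letter blocks and each pool left out. The labels do not say whether the letters pair the pools. Deviations of same-letter pools correlated at -0.21 and -0.55 in females and -0.29 and -0.60 in males over 7950 probes. With 2 sublingual pools per sex, their deviations are mirror images, and the same-letter B pools lie in different array sets. These values therefore cannot tell whether pools of the same letter share animals.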

Additional observations from a re-analysis of the deposited data

Results flagged for a closer look

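The gland difference of the Traf1 probe differed between the sexes by a test of that difference itself, limma's interaction term: it was 2.71 higher in males than in females on the log2 scale (adjusted p = 0.0468). All 3 male submandibular pools lay above the other 7 pools. Leaving out any 1 submandibular pool removed the call, and its cause was not tested.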

How the results depend on the processing

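The total of 849 calls lay between 686 and 917 with each pool left out in turn, and stayed within 1.5 times under 17 of 21 other alternatives, such as 844 from the 10 arrays, 783 where missing spots took the floor and 847 after quantile normalization. The mean over arrays in place of equal sexes, counted among the 17, could not differ from the main fit. Each gland had equal numbers of pools per sex. The total was 390 (173 higher in the submandibular and 217 in the sublingual gland) on log2(value + 1), with 475 in males, and 305 (104 and 201) from the female arrays. Set 2 alone, added after seeing the data like the other array set fits, gave 373 (84 and 289). With the replicate block, the letter within sex, there were 412 calls (169 and 243), 10 in females, 50 in males and 0 for sex by gland. Whether the letters pair the pools is not stated in the labels and cannot be told from the values.

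The female count was 483 with array weights, 489 with the set block on 26 arrays and 104 to 382 with pools left out. The male count was 359 to 836 with pools left out. The sex-by-gland count of 1 was 0 from the 10 arrays, with the letter block over both sexes, with the missing code at the floor, without a filter, with the set block on 10 arrays, and on 10 arrays without female submandibular C. It was 2 with centred arrays or a trended robust prior, 3 with the 50th percentile filter, 4 with the 5th percentile floor, quantile normalization or array weights, 10 with the set block on 26 arrays, 30 on log2(value + 1), and 0 to 17 with pools left out. The causes were not tested.

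Of the 137 named probes called, 104 kept the call with each pool left out in turn, and 28 under all alternatives. The difference reversed for Cyth3 with the missing code at the floor (-0.0545, adjusted p = 0.992), since most of its spots are missing, and for Gsta2 in the female arrays (-0.12, adjusted p = 0.925).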
